A study of Homo sapiens with 6 samples.

Results

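The 7 genes described here encode the inhibitors of cyclin-dependent kinases, and they were taken by symbol: CDKN1A, CDKN1B, CDKN1C, CDKN2A, CDKN2B, CDKN2C and CDKN2D. The platform annotation gave 14 probe sets with only that symbol to 6 of the 7 genes, out of 41091 such probe sets and 19775 genes in all. CDKN2C was not analysed here. The cells were MCF10A, an established line of breast epithelial cells that does not form tumours. They were plated at 50K, 100K, 200K, 400K, 600K or 800K cells per 35 mm dish, all without any other treatment, and RNA was taken after 24 h. The medium was the same throughout and held horse serum (5%), EGF (20 ng/ml), insulin (10 μg/ml), hydrocortisone (0.5 μg/ml) and cholera toxin (100 ng/ml). There was 1 Affymetrix HG-U133 Plus 2 array for each density, so no density has a replicate. The sources used here do not say whether an array holds RNA of several dishes.

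Cyclin-dependent kinases drive the cell cycle when bound to cyclins, and 2 protein families hold them back. The Cip/Kip family, p21 (CDKN1A), p27 (CDKN1B) and p57 (CDKN1C), binds complexes of cyclins with kinases, above all those of CDK2. The INK4 family, p16 (CDKN2A), p15 (CDKN2B), p18 (CDKN2C) and p19 (CDKN2D), binds CDK4 and CDK6 alone and keeps D-type cyclins from them. In epithelia these proteins are known for their part in leaving the cycle on contact, differentiation or DNA damage. Much of the control of p27 acts on the stability of the protein, which an array of RNA does not measure. The CDKN2A/CDKN2B locus is reported to be deleted in MCF10A, so the probe sets of these genes serve here as a check of background.

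Each deposited value is the ratio of a probe set on 1 array to the same probe set at 50K. Such ratios give changes and no level, so the label of the cells could not be checked against the level of its markers, and levels of different genes cannot be compared. Below, a log2 ratio of 1 is a doubling against 50K, and a slope is the change in log2 ratio per doubling of the cells plated, fitted by limma over the 6 arrays with its standard error (SE). A gene is called rising or falling where the p of its slope, adjusted by the Benjamini-Hochberg procedure over all genes, is under 0.05. These p-values measure the scatter of 6 single arrays around a line. Where 5 values are listed without densities, they are those of 100K, 200K, 400K, 600K and 800K in this order. Of 5 measured markers of breast epithelium, KRT14, CDH1 and KRT5 rose. KRT18 (slope −0.098 ± 0.036, limma adjusted p = 0.116) and EPCAM (0.12 ± 0.05, limma adjusted p = 0.180) did not pass. By the cell number itself 2 of these 5 rose and 1 fell, and with the 3 highest densities set against the 3 lowest 1 rose. Of the markers of other cell types, 1 of 5 fibroblast, 2 of 4 endothelial, 0 of 2 leukocyte and 0 of 3 adipocyte genes were called, all rising, namely DCN (slope 0.075 ± 0.019), KDR (0.20 ± 0.05) and PECAM1 (0.12 ± 0.03). These calls depended on single arrays: leaving out 1 array lost DCN and KDR in 5 of 6 cases and PECAM1 in 4 of 6 (limma adjusted p up to 0.228), and DCN had a slope of −0.0021 without probe sets ending in _x_at or _s_at. None of the 3 was called with the 3 highest densities set against the 3 lowest. The median log2 ratio over all non-control probe sets stayed between 0.018 and 0.051 on the 5 arrays above 50K. The 24 probe sets of the poly-A controls, RNAs added before labelling, were lower on those 5 arrays, with median log2 ratios between −0.45 (200K) and −0.23 (800K), so the 50K array stood apart in them. The ratio of 3′ to 5′ probe sets of beta-actin, a sign of RNA quality or labelling, was 0.983, 1.03, 1.12, 1.16 and 1.23 relative to 50K, and thus higher at high density, while that of GAPDH lay between 0.968 and 1.05. The part of these controls and markers in the trends below was not tested.

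Of the 6 measured inhibitors, CDKN1C rose with density, and CDKN1A, CDKN1B, CDKN2A, CDKN2B and CDKN2D were not called in either direction. Over all genes, 8.93% rose and 12.4% fell. The median slope of the 6 was 0.014, beside 0.0045 over all 19775 genes. CDKN1C at 800K was 4.54 times its value at 50K, while the ratios of the other 5 at 800K lay between 0.751 (CDKN2D) and 1.19 (CDKN1B). Among all genes 2.25% were 2-fold or more higher and 2.69% 2-fold or more lower at 800K.

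**Figure D1:**
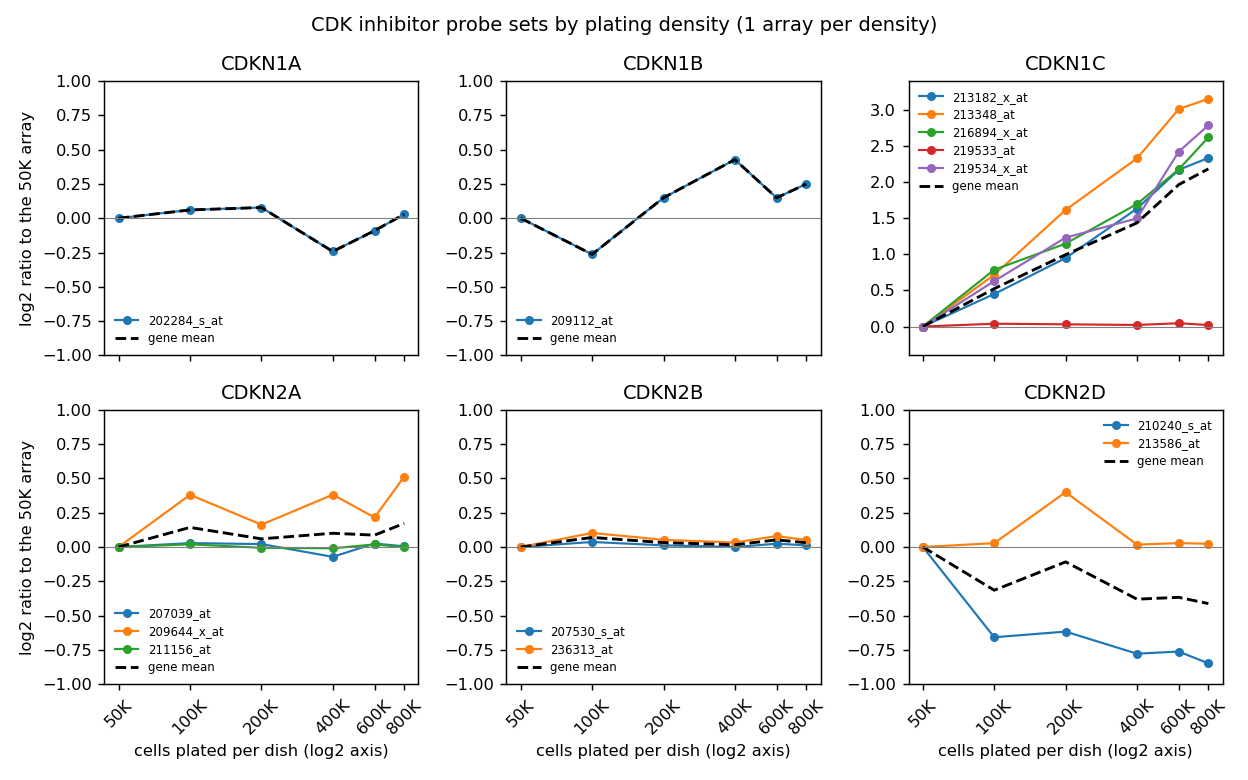
Log2 ratio to the 50K array (vertical axis) against the cells plated per dish (log2 axis) for each probe set (coloured lines, 1 array per point) and the gene mean (dashed black line). The vertical axis of CDKN1C spans a wider range than those of the other genes, and 4 of the 5 CDKN1C probe sets climb to between 2.34 and 3.15 at 800K.

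Promoter sequence is shown for the 3 measured members outside the CDKN2A/CDKN2B locus that the RefSeq promoter table holds, because the boxes of their proximal promoters differ. Of the 6 measured members, CDKN1C was not matched in that table. Each line gives the 250 bases before the annotated start, 5′ to 3′ on the strand of the gene, from RefSeq on GRCh38.p14. They lie at chr6:36678464-36678713 (plus strand) for CDKN1A, chr12:12717118-12717367 (plus strand) for CDKN1B and chr19:10568980-10569229 (minus strand) for CDKN2D. Capitals mark GC boxes (GGGCGG, or CCGCCC on the other strand) and CCAAT boxes (CCAAT, or ATTGG on the other strand).
CDKN1A: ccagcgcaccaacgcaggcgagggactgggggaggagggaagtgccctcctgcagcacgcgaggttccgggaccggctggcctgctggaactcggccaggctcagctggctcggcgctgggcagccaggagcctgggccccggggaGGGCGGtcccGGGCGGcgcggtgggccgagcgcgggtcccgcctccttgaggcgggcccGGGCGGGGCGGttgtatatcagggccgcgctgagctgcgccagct
CDKN1B: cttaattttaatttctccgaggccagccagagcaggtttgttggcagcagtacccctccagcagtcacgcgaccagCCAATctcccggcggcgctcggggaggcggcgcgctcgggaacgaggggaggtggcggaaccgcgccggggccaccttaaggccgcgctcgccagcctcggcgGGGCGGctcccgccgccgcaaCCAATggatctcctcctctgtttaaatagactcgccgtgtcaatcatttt
CDKN2D: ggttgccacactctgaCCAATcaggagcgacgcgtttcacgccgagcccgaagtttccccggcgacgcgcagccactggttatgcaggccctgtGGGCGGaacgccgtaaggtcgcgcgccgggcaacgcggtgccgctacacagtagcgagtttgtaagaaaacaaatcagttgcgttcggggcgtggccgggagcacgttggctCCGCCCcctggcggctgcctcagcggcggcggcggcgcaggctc

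CDKN1A has 4 GC boxes, the last 2 overlapping by a base between 45 and 35 bases before the start, and no CCAAT box in this window. CDKN1B has 1 GC box and 2 CCAAT boxes, which start 174 and 50 bases before the start. CDKN2D has 2 GC boxes, of which 1 is on the other strand, and 1 CCAAT box. Of 35116 promoter windows of the same length, 42.6% hold a GC box and 32.0% a CCAAT box on either strand. Searches on both strands for E2F sites (TTTCCCGC, TTTGGCGC, TTTCGCGC or TTTGCCGC, in 2.79% of all windows), the cell cycle homology region (TTTGAA, 13.3%), the TATA box (TATAAA, 10.7%), the E-box CACGTG (6.34%) and the glucocorticoid half-site AGAACA (12.4%) found none of these letters in the 3 windows.

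CDKN1C encodes p57, a Cip/Kip inhibitor that is expressed from the maternal allele in an imprinted region and is lost or silenced in some growth disorders and tumours. Its gene mean had log2 ratios of 0.52, 0.99, 1.44, 1.97 and 2.18. Each density was higher than the one below it, up to 800K. The slope was 0.54 ± 0.02 log2 units per doubling (SE, 6 arrays, limma adjusted p = 0.000376), and it was the 98th highest of all 19775 slopes and the 96th of the 1765 rising genes. The change per doubling on reaching each of these densities was 0.52, 0.47, 0.44, 0.91 and 0.53. The step to 600K was thus the steepest of the 5, but the quadratic term of the fit did not pass (0.12 ± 0.074, limma adjusted p = 0.626), as for all 19775 genes, of which 0% passed after adjustment and 12.6% had an unadjusted p under 0.05.

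The 5 probe sets of CDKN1C fell into 4 that rose and 1 that stayed flat. The probe set 213348_at had ratios of 1.64, 3.06, 5.03, 8.07 and 8.90, the largest rise of any member. The probe set 219534_x_at had ratios of 1.55, 2.35, 2.82, 5.36 and 6.90. The ratios were 1.72, 2.22, 3.24, 4.52 and 6.15 for 216894_x_at, and 213182_x_at had 1.37, 1.93, 3.10, 4.50 and 5.05. All 4 were ordered by density without exception. Their slopes were 0.81 ± 0.02 (213348_at), 0.66 ± 0.06 (219534_x_at), 0.61 ± 0.04 (216894_x_at) and 0.60 ± 0.03 (213182_x_at), each with a limma adjusted p between 0.000488 and 0.00397 over all 41091 probe sets, of which 7.14% rose and 10.1% fell. The suffix _x_at marks probes that may bind other transcripts; the steepest of the 4 has no such suffix.

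The flat probe set, 219533_at, had ratios between 1.01 and 1.03 at all densities above 50K, with a slope of 0.0046 ± 0.012 (limma adjusted p = 0.887). Its log2 ratios spanned 0.046, at percentile 3.89 of the spans of all 41091 probe sets. It lowers the gene mean: the 4 rising probe sets alone were between 5.05-fold and 8.90-fold higher at 800K, against the 4.54-fold of the mean of all 5. Without the probe sets ending in _x_at or _s_at, which leaves 213348_at and 219533_at, the slope of CDKN1C was 0.41 (limma adjusted p = 0.000557).

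**Figure D2:**
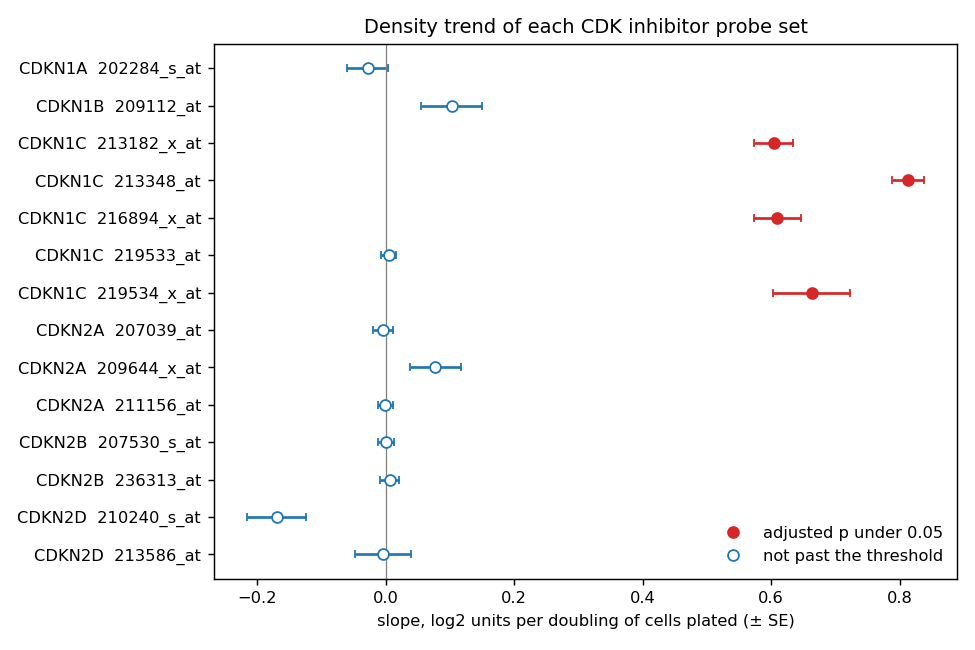
Slope of the log2 ratio per doubling of the cells plated (horizontal axis, bars are standard errors of the limma fit over 6 arrays) for the 14 probe sets of the 6 genes. Filled red points passed an adjusted p of 0.05 over all probe sets: the 4 of CDKN1C between 0.60 and 0.81, and none of the other 10.

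Distances were the root mean square between log2 ratio profiles over the 6 arrays, taken to the gene mean of CDKN1C with its flat probe set. The genes most like that mean were CDK18 (0.082), TRIM22 (0.094) and IGFBP2 (0.10), each with 1 probe set. CDK18 encodes a kinase of the PCTAIRE group, TRIM22 an interferon-induced protein and IGFBP2 a binding protein of insulin-like growth factors. Their log2 ratios at 800K were 2.37 for CDK18, 2.30 for TRIM22 and 1.99 for IGFBP2, beside 2.18 for the CDKN1C mean. The rising CDKN1C probe sets alone lay between 2.34 and 3.15. Of the measured neighbours of CDKN1C on its chromosome, KCNQ1 (slope −0.0023 ± 0.018), the antisense transcript KCNQ1OT1 of the imprinting centre (0.047 ± 0.023), the growth-limiting imprinted gene PHLDA2 (−0.042 ± 0.014) and the histone chaperone NAP1L4 (−0.057 ± 0.016), none passed the test (limma adjusted p between 0.0562 and 0.958). NAP1L4 fell with median-centred arrays (limma adjusted p = 0.0388) and by the cell number itself (limma adjusted p = 0.0457). SLC22A18, IGF2 and H19 were not analysed here.

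CDKN1A encodes p21, the inhibitor best known for its induction by DNA damage. Its only probe set had log2 ratios of 0.060, 0.078, −0.24, −0.091 and 0.029. The value at 400K was the lowest, and 800K lay 0.029 above 50K. The slope was −0.029 ± 0.031 (limma adjusted p = 0.649), and the fitted change from 50K to 800K was −0.11 log2 units with a 95% interval from −0.42 to 0.19.

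CDKN1B encodes p27, the Cip/Kip inhibitor tied to contact inhibition and growth factor withdrawal. Its only probe set had log2 ratios of −0.26, 0.15, 0.43, 0.15 and 0.25. The lowest value was at 100K and the highest at 400K, where the ratio to 50K was 1.34, with no order by density above that. The slope of 0.10 ± 0.046 did not pass (limma adjusted p = 0.195), and the fitted change from 50K to 800K was 0.41 log2 units with a 95% interval from −0.045 to 0.86.

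Of 14 measured genes that act on the turnover or export of p27 and p21, 4 fell, 2 rose and 8 did not pass. Their median slope was −0.021, and over all genes 12.4% fell and 8.93% rose. DTL, the receptor that directs p21 to the CUL4 ubiquitin ligase, at 800K was 3.89-fold lower than at 50K (slope −0.49 ± 0.10). SKP2, which recognises p27 for the SCF ligase, was 2.05-fold lower (−0.28 ± 0.06), and so was PCNA, the replication clamp on which p21 is marked by DTL (2.05-fold, −0.25 ± 0.05). The rising genes were RNF123, a ligase of p27 in the cytoplasm (0.15 ± 0.03), and DDB1, the adaptor of CUL4 ligases (0.10 ± 0.02). DTL, SKP2 and PCNA lost their calls without 100K, 600K or 800K, where the number falling was 1, 0 and 0, and the number rising was 0 without 50K. RNF123 lost its call without 50K or 100K (limma adjusted p up to 0.104), and DDB1 without 50K (limma adjusted p = 0.0527). With the 3 highest densities set against the 3 lowest, 0 of the 14 rose and 1 fell.

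CDKN2D encodes p19, the INK4 protein whose RNA is known to change through the cell cycle. Its probe set 210240_s_at had log2 ratios of −0.66, −0.62, −0.78, −0.76 and −0.85. All 5 arrays lay well below 50K, and most of the difference was present at 100K. The other probe set, 213586_at, had log2 ratios of 0.028, 0.40, 0.017, 0.028 and 0.024. It was above 0.03 at 200K alone. The slope of 210240_s_at was −0.17 ± 0.045 (limma adjusted p = 0.0581 over all probe sets) and that of the gene mean −0.087 ± 0.029 (limma adjusted p = 0.0862), neither past the threshold. The fitted change of the gene mean from 50K to 800K was −0.35 log2 units, with an unadjusted 95% interval from −0.63 to −0.068. The gene mean passed without the 100K array (−0.11, limma adjusted p = 0.0327), and without the 50K array its slope was −0.057 (limma adjusted p = 0.472). The poly-A controls were also lower on every array above 50K, by a median of 0.26 at 100K on the log2 scale, and their part in the CDKN2D values was not tested.

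CDKN2A, which encodes p16 and, from another reading frame, ARF, and CDKN2B, which encodes the TGF-beta-induced inhibitor p15, were the background check. The log2 ratios of 4 of their 5 probe sets spanned between 0.029 and 0.10 over the 6 arrays, where the median span of all 41091 probe sets was 0.35. In 21 probe sets of 12 genes of other tissues, such as albumin (ALB), insulin (INS) and the astrocyte marker GFAP, the median span was 0.19. Spans of these 21 ran from 0.036 to 0.66, so the background was not flat in all of them. The 4 flat probe sets were 207039_at and 211156_at of CDKN2A and 207530_s_at and 236313_at of CDKN2B, and both CDKN2B probe sets followed the medians of the arrays, highest at 100K and 600K and lowest at 400K among densities above 50K.

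The probe set 209644_x_at of CDKN2A differed from these 4, with ratios of 1.30, 1.12, 1.30, 1.16 and 1.43 and a span of 0.51 on the log2 scale. All 5 arrays were above 50K without an order by density, and its slope did not pass (0.077 ± 0.040, limma adjusted p = 0.275). It carries the suffix of probes that may bind other transcripts, and whether such binding accounts for its values was not tested. The gene means had slopes of 0.024 ± 0.017 for CDKN2A (limma adjusted p = 0.416) and 0.0032 ± 0.013 for CDKN2B (limma adjusted p = 0.918).

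Of the neighbours of the locus, MTAP, an enzyme of methionine salvage, the antisense RNA CDKN2B-AS1 and the transcription factor gene DMRTA1 had slopes between 0.0034 and 0.022, and 0 of the 3 passed (limma adjusted p between 0.417 and 0.913). The 6 MTAP probe sets spanned between 0.030 and 0.56 on the log2 scale, the widest being 211364_at, whose log2 ratio was 0.51 at 800K.

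**Figure D3:**
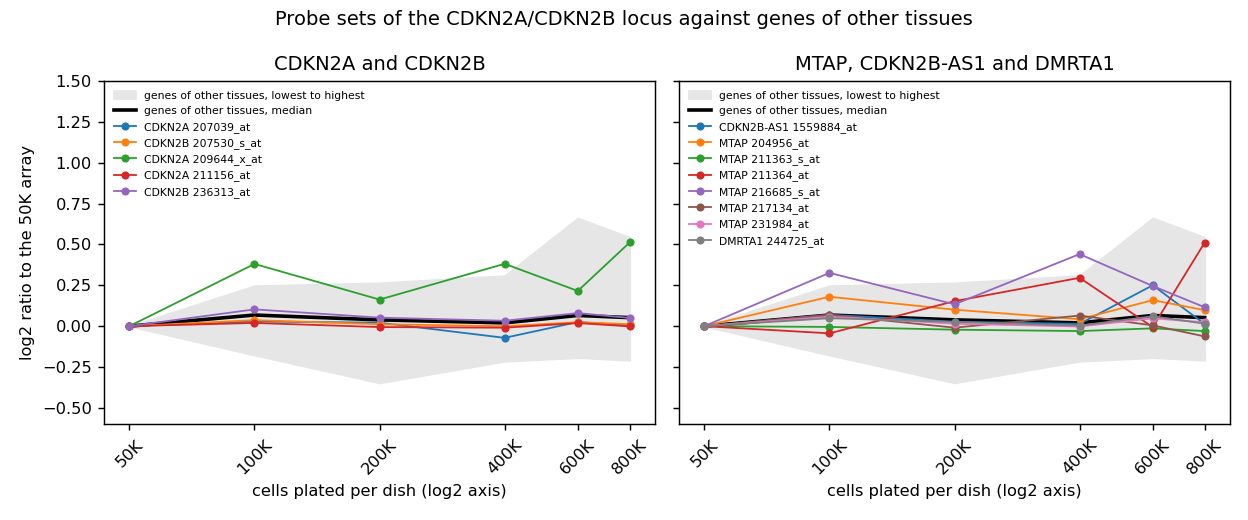
Log2 ratio to the 50K array (vertical axis) against the cells plated per dish (log2 axis) for probe sets of CDKN2A and CDKN2B (left) and of their neighbours (right). The grey band and black line give the lowest to highest and the median of 21 probe sets of genes of other tissues, and 4 of the 5 CDKN2A and CDKN2B lines stay between −0.072 and 0.10.

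The difference between members was tested in all 15 pairs of the 6 genes by a two-sided exact permutation of the 6 densities over all 720 orders, adjusted over the 15 pairs. The slope of CDKN1C exceeded that of each of the other 5, by 0.63 ± 0.04 (CDKN2D), 0.57 ± 0.03 (CDKN1A), 0.54 ± 0.03 (CDKN2B), 0.51 ± 0.03 (CDKN2A) and 0.44 ± 0.08 (CDKN1B). Each of these 5 had an exact p of 0.00139, the smallest that 720 orders allow, and an adjusted exact p of 0.00417. Without 600K or without 800K their adjusted exact p was 0.05, which is not under the threshold, with differences between 0.41 and 0.62. Without 600K the remaining densities are evenly spaced on the log2 scale, so 0.0167 is the smallest exact p and 5 pairs at it cannot pass. The test of CDKN1C against CDKN1B did not pass without 50K (adjusted exact p = 0.2). The other 10 pairs did not pass, which does not show that their members act alike. The closest was CDKN1B against CDKN2D, whose slopes of 0.10 and −0.087 differed by 0.19 ± 0.05 (exact p = 0.025, adjusted exact p = 0.0625). In the order of slopes, CDKN1C thus stood above CDKN1B, CDKN2A, CDKN2B, CDKN1A and CDKN2D, and no neighbours among those 5 differed by this test.

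Of 16 genes of kinases, cyclins, pocket proteins and E2F factors, which lie on or downstream of the complexes that the inhibitors bind, 10 fell, 2 rose and 4 did not pass. Their median slope was −0.22, where 12.4% of all genes fell and 8.93% rose. CCNE2, the E-type cyclin that activates CDK2, at 800K was 5.81-fold below 50K (slope −0.68 ± 0.11). E2F1, the transcription factor released from RB1, had −0.29 ± 0.04, and CCNE1 had −0.29 ± 0.03. The kinase genes CDK2 (−0.26 ± 0.04) and CDK6 (−0.26 ± 0.03) fell, while CDK4 did not pass (−0.11 ± 0.03). The D-type cyclins, which INK4 proteins keep from CDK4 and CDK6, split: CCND1 fell (−0.27 ± 0.02), CCND3 rose (0.34 ± 0.03) and CCND2 did not pass (−0.031 ± 0.053). Of the 3 pocket proteins, RBL1 fell (−0.21 ± 0.03) and RB1 did not pass (−0.057 ± 0.024, limma adjusted p = 0.155). RBL2, the pocket protein of resting cells, rose (0.25 ± 0.05) and lost its call without 100K, 600K or 800K (limma adjusted p up to 0.0782).

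Of 17 measured regulators of transcription of the inhibitors, 4 rose, 0 fell by limma's adjusted p, and 13 did not pass. Their median slope was 0.053, where 8.93% of all genes rose and 12.4% fell. HES1, the Notch target known to repress CDKN1B and CDKN1C, rose (0.24 ± 0.02). So did GATA3, a luminal factor reported to repress CDKN2C (0.22 ± 0.02), and FOXO1, which activates CDKN1B (0.11 ± 0.01). Without the _x_at and _s_at probe sets the slope of HES1 was 0.028. EZH2, a histone methyltransferase that represses the CDKN2A locus, had a slope of −0.18 (limma adjusted p = 0.120) and fell under 3 alternatives, namely without the 400K array, by the cell number itself and by its rank (limma adjusted p between 0.0235 and 0.0482). SMAD2, a mediator of TGF-beta, had −0.048 (limma adjusted p = 0.0675) and fell with median-centred arrays (−0.053, limma adjusted p = 0.0458) and without the _x_at and _s_at probe sets (−0.090, limma adjusted p = 0.0367). TP63 and BMI1 were not analysed here.

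CDKN1C is known to be induced by glucocorticoids, and the medium held hydrocortisone at every density. Of 6 measured glucocorticoid targets, 5 rose and DUSP1 did not pass, with a median slope of 0.40. Over all genes, 8.93% rose. At 800K the ratio of ZBTB16 was 7.09 (slope 0.68 ± 0.03), that of the glutamine synthetase gene GLUL 6.10 (0.67 ± 0.07) and that of TSC22D3, an anti-inflammatory leucine zipper protein, 3.81 (0.52 ± 0.04). With the 3 highest densities set against the 3 lowest, 3 of the 6 rose. Leaving out 50K, 100K or 600K left 4 of the 6 rising. Without the _x_at and _s_at probe sets, 3 of the 4 genes still measured rose. The slope of TSC22D3 was 0.00026 without the _x_at and _s_at probe sets. NR3C1, the glucocorticoid receptor, did not pass (0.052 ± 0.022, limma adjusted p = 0.159). The lists of this and the preceding paragraphs are described by counts and medians alone, and whether these genes move with CDKN1C beyond the general trend with density was not tested.

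**Figure D4:**
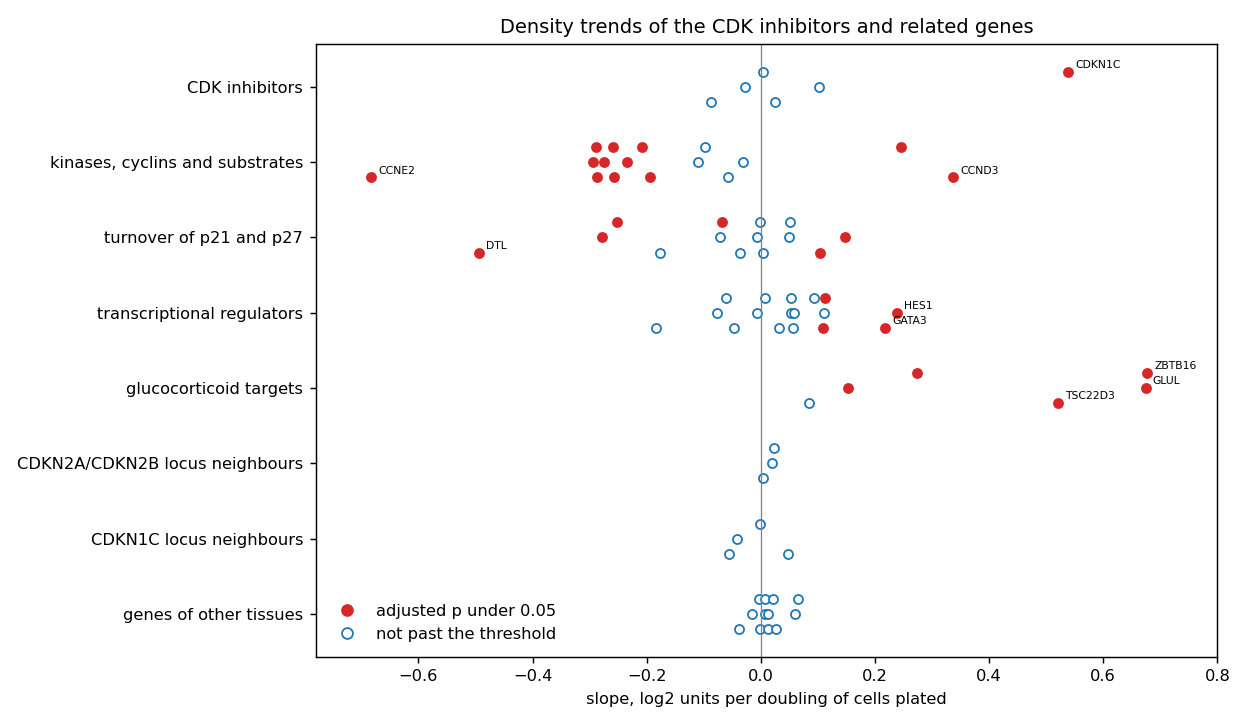
Slope of the log2 ratio per doubling of the cells plated (horizontal axis) for each measured gene of the named lists (rows), with filled red points for genes past an adjusted p of 0.05 in limma. CDKN1C at 0.54 is the only filled point among the 6 CDK inhibitors, while 10 of the 16 kinases, cyclins and substrates are filled on the left of 0, and no gene of other tissues is filled.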

How the data were processed

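Per the labels' protocols, 200 ng of total RNA from each MCF10A culture went into biotin labelling for HG-U133 Plus 2 arrays. RMA is named, with no version, per the submitters' processing notes. The deposited values are a linear ratio to the 50K array for each probe set; in that column all 54675 values equal 1 within 1e-06. No count or array intensity was used, so depth and signal over background are unknown, and only the number of arrays limits the precision that can be stated.

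The log2 of each ratio was taken without a filter. Of the non-control probe sets, 41091 had 1 gene symbol, 1801 had several and 11721 were not listed; 41037 matched the RefSeq gene table by gene identifier. A gene is the mean of its probe sets with 1 symbol. Slopes and quadratic terms come from limma 3.58.1 under R 4.3.3, using lmFit and eBayes on log2 of the cells plated, two-sided, over all 6 arrays, and the procedure was tested on simulated data. The members and lists were chosen with earlier results of these data known. The named genes are all members and neighbours, up to 3 passing genes of each list in each direction with the largest slopes, and the 3 genes nearest in profile to each called member. Of the cell type markers, those called are named, and the other measured markers of breast epithelium were added after their values were seen. Others (CDK2, CDK4, CDK6, CCND1, CCND2, RB1, RBL1, DUSP1, NR3C1, EZH2 and SMAD2) were named after their values were seen. 1 further gene list is not reported here.

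Alternatives were leaving out probe sets ending in _x_at or _s_at, median-centred arrays, the cell number or its rank, the 3 highest against the 3 lowest densities, robust variances and leaving out each array.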

Additional observations from a re-analysis of the deposited data

How the results depend on the processing

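The rise of CDKN1C kept its direction and its side of the threshold under all 12 alternatives run for its trend, with slopes between 0.52 and 0.56 when 1 array was left out. It came nearest to the threshold with the 3 highest densities set against the 3 lowest (limma adjusted p = 0.0447). CDKN1A, CDKN1B, CDKN2A and CDKN2B stayed uncalled under each alternative that could give them a value. CDKN2D stayed uncalled except without the 100K array; its slope lay between −0.11 and −0.057 with 1 array left out. Values near 0 that passed no test changed sign. For the trend these were CDKN2A without the _x_at and _s_at probe sets (−0.0025), and CDKN2B with median-centred arrays (−0.0023), as a difference of the 3 highest from the 3 lowest densities (−0.00074) and with 1 array left out (−0.0089 to 0.0092). For probe sets with 1 array left out the slopes lay between −0.0094 and 0.0011 (207039_at), −0.0059 and 0.0037 (207530_s_at), −0.0032 and 0.0016 (211156_at), −0.046 and 0.0087 (213586_at), −0.0027 and 0.0079 (219533_at) and −0.012 and 0.015 (236313_at). With median-centred arrays they were −0.0052 (207530_s_at) and −0.00084 (219533_at), and 207530_s_at had −4.33e-07 on the scale of the cells plated, in K.

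The count of genes called, 4220, was 2664 (1157 rising, 1507 falling) without the _x_at and _s_at probe sets, 2259 (908 and 1351) for the 3 highest against the 3 lowest densities, and between 2388 and 3909 with 1 array left out (1026 to 1627 rising, 1362 to 2282 falling). The count of probe sets, 7069, lay between 3021 and 6337 with 1 array left out (1336 to 2570 rising, 1685 to 3767 falling). Some of these fits held fewer arrays or probe sets, while that of the 3 highest against the 3 lowest densities held all of them. The causes of the differences in count were not tested. Quadratic terms of the members, none of which passed, also changed sign: CDKN1B with median-centred arrays (0.0093), CDKN1C (−0.43) and CDKN2A (0.017) with the cell number itself, CDKN2A with median-centred arrays (0.0037) or without _x_at and _s_at probe sets (0.0042), and CDKN2D without these (−0.22). With 1 array left out they lay between −0.089 and 0.13 (CDKN1A), −0.29 and 0.089 (CDKN1B), −0.052 and 0.079 (CDKN2A), −0.031 and 0.026 (CDKN2B) and −0.12 and 0.14 (CDKN2D).

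Of the pairs of members, between 0 and 7 passed with 1 array left out, against 5 with all arrays. Without 600K or 800K the 0 comes with an adjusted exact p of 0.05 for each of the 5 pairs with CDKN1C, from the 120 orders of 5 densities. Without 600K, 5 pairs at the smallest exact p cannot pass. That limit does not hold without 800K, where the lowest exact p was 0.00833. CDKN2A minus CDKN2B was −0.0086 without the _x_at and _s_at probe sets. No paired analysis was possible because each density has 1 array. A filter on low values could not be applied, since ratios hold no level, and a fall towards the background of the array is understated.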
